A study of Mus musculus with 34 samples.

Results

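How far the response of sensory neurons to a nerve crush depended on the transcription factor ATF3 was read here gene by gene, as the crush effect in mice that lack ATF3 in sensory neurons minus the crush effect in control mice. All 34 libraries of the series entered that difference, 2 from each of 17 mice, and 19565 of 48795 genes had enough counts to be tested. The libraries form 4 groups. Injured ATF3-cKO and naive ATF3-cKO ganglia came from the left and the uncrushed right side of 8 mice that were Adv-Cre+ with homozygous floxed Atf3 (ATF3-fl_homo, exon 3), of which 5 were female and 3 male. Injured ATF3-wt and naive ATF3-wt ganglia came from both sides of 9 mice of the same colony: 4 Cre-negative females with 1 floxed allele (ATF3-fl_het), 2 Cre-negative females with ATF3 wt alleles, and 3 Adv-Cre+ males with ATF3 wt alleles. All female controls thus lacked Cre and all male controls carried it, so that among females Cre and the deletion cannot be told apart. The mice were 8 to 12 weeks old, the sciatic nerve was crushed 3 days before, and lumbar dorsal root ganglia (L4 to L6) were dissociated and enriched for neurons on 20% Percoll. Mice are named below by genotype and animal number, such as cKO-131.

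ATF3 is a basic leucine zipper protein that binds DNA as a dimer, often with Jun, at AP-1 and ATF/CREB sites. It is usually described as nearly silent in intact sensory neurons and switched on within hours to days of axon damage, and is widely used as a label of injured neurons. The naive libraries here were not without Atf3 counts, as given below. The genes that damaged peripheral neurons switch on with it include neuropeptides, cytoskeletal proteins of the growing axon, and signals to glia and macrophages, while many ion channel and subtype genes are turned down. The Adv-Cre transgene is driven by the Advillin gene (Avil), which is active in most sensory neurons and in few other cells, so non-neuronal cells of the ganglion keep their ATF3. In bulk ganglion RNA, fewer cells of a type and less RNA per cell cannot be told apart.

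Depth ran from 35732193 to 77632944 counts per library. Neuronal genes were abundant in all groups: Uchl1, a ubiquitin hydrolase of neurons, averaged 1370 CPM (counts scaled to a common library size) in injured cKO, 1389 in naive cKO, 1562 in injured wt and 1432 in naive wt ganglia. Whole-gene counts of Atf3, which include exons outside the deleted one and so do not check the deletion, had a crush effect of 1.15 (log2) in cKO and 1.48 in wt mice, a difference of -0.34 ± 0.27 (SE, adjusted p = 0.524). The level of Atf3 was 179 to 361 CPM in injured cKO and 70.1 to 150 in naive cKO ganglia, against 169 to 652.5 in injured wt and 75.5 to 184 in naive wt ganglia. Avil was at 83.4 to 88.8 CPM in the libraries of cKO-131 and at 432 to 531 CPM in the other 7 cKO mice, against 488 to 1036 CPM in wt mice. The Cre-negative control wt-150 was at 499 to 517 CPM, as low as the Cre-positive controls, while the other 5 Cre-negative controls were at 792 CPM or more, so these 2 mice go against the pattern of their group. Without both mice, 607 genes were called lower and 440 higher in place of the 839 and 635 given below. The share of counts in 3 ribosomal spacer genes also split the mice, into 6 with at most 10.3% (3 cKO, 3 wt) and 11 with at least 13.7% (5 cKO, 6 wt).

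The difference of crush effects passed the test (edgeR's quasi-likelihood test with the mouse as a block, Benjamini-Hochberg adjusted p under 0.05 over all genes tested) for 1474 genes, or 7.53% of those tested. It was negative, meaning a lower crush effect in cKO than in wt mice, for 839 genes (4.29%), and positive for 635 genes (3.25%). At least a 2-fold difference was reached by 257 genes (1.31%), and this was one-sided: 221 were lower (1.13%) and 36 higher (0.184%). By the same fit the crush changed 1643 genes (8.4%) in cKO mice, of which 934 rose (4.77%) and 709 fell (3.62%). In wt mice it changed 8003 genes (40.9%), of which 4072 rose (20.8%) and 3931 fell (20.1%). Changes of at least 2-fold numbered 235 upward (1.2%) and 9 downward (0.046%) in cKO mice, against 730 upward (3.73%) and 69 downward (0.353%) in wt mice.

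Set side by side, the genes called lower had a median crush effect of 0.06 (log2) in cKO mice, against 0.58 in wt mice. The genes called higher had a median of 0.02 in cKO mice, against -0.32 in wt mice. Over all genes tested, both medians lay at 0.01 to 0.02. These effects share libraries with the difference that chose the genes, so they describe the calls and test nothing further. In 212 of the 839 genes called lower, every cKO mouse lay below every wt mouse in its ratio of injured to naive CPM (1.16% of all genes tested did so), and in 69 of the 635 genes called higher every cKO mouse lay above every wt mouse (0.373% of all genes tested).

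**Figure D1:**
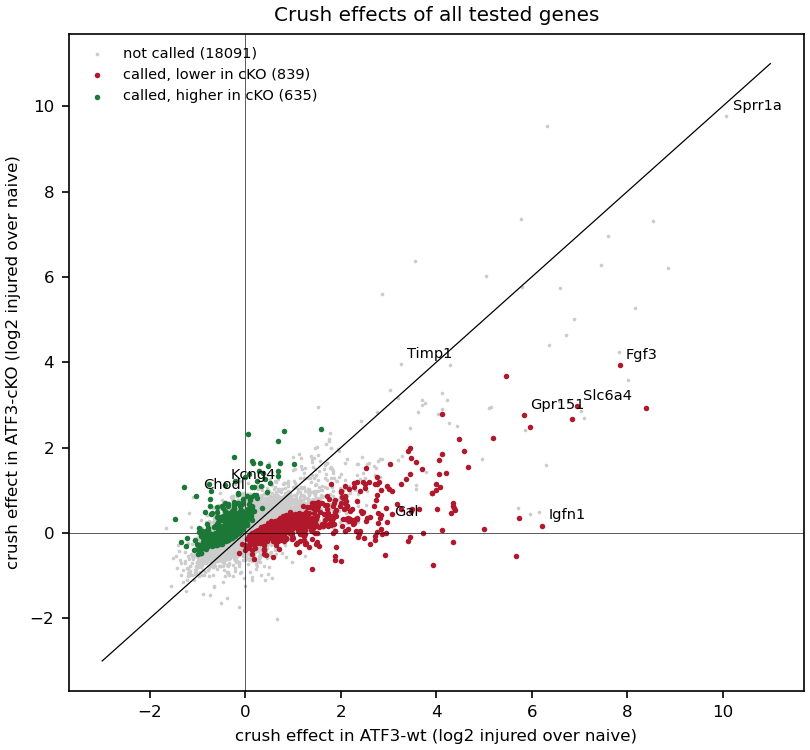
Each point is 1 of 19565 tested genes, with the fitted crush effect (log2 injured over naive) in ATF3-wt mice on the horizontal axis and in ATF3-cKO mice on the vertical axis. The 839 genes called lower in cKO (red) stretch to the right along a vertical value near 0, and the 635 called higher (green) lie mostly at wt effects below 0, with cKO effects closer to 0. Points on the diagonal have equal effects, and the fitted values of genes near 0 counts on the naive side, such as Sprr1a, are unreliable.

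The counts of calls moved with the mice used. Leaving out 1 mouse at a time gave 571 to 1099 genes lower and 407 to 858 higher. The count of higher genes was moved by over 1.5 times without cKO-163 (407), wt-139 (423) or wt-175 (410). Genes that rose after crush in cKO mice numbered 566 without cKO-152 and 560 without cKO-163. Genes that fell there numbered 309 without cKO-130, 301 without cKO-152, 280 without cKO-163, 403 without cKO-192, 329 without cKO-194 and 1363 without wt-176. Within females 112 genes were lower and 44 higher, and within males 0 and 0. In males 1741 of 19290 genes tested had an unadjusted p under 0.05 in the same edgeR test (941 lower, 800 higher). With all mice 4352 of 19565 genes (22.2%) did so, and no other tool was run within males. Within the mice of high spacer share, 55 genes were lower and 18 higher, and within those of low share 2 and 1. Among Cre-positive mice alone, where all controls were male, 251 were lower and 137 higher. All 28 genes with the largest differences or smallest p, described below, kept their direction in each of these subsets, and 19 of them were called in females, 18 in the high-share mice, 25 in Cre-positive mice, 2 in the low-share mice and 0 in males. The mice of each subset also chose these genes, so their shared direction is a description and no test.

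A slope was taken for each mouse as a measure of how much of the wt response it showed: its log2 injured to naive ratios were set against the mean ratios of the wt mice, over the genes that wt mice changed at least 2-fold, with each wt mouse left out of its own reference. The slope was 0.229 to 0.556 in cKO mice (median 0.372) and 0.549 to 1.43 in wt mice (median 0.85). The groups touched, since cKO-194, at 0.556, lay just above wt-141, at 0.549. The lowest cKO slope was that of cKO-131, the mouse with low Avil, and the highest wt slope was that of wt-172.

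**Figure D2:**
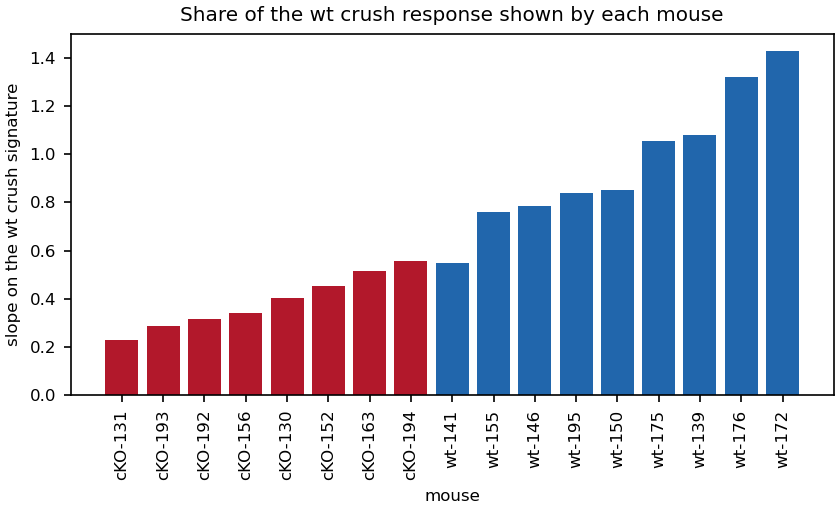
Bars give the slope of each mouse's log2 injured to naive ratios on the mean wt crush signature, with the 8 cKO mice (red) left of the 9 wt mice (blue) and sorted within genotype. The cKO mice run from 0.229 to 0.556 and the wt mice from 0.549 to 1.43, where 1 is the average wt response.

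Peptides and secreted signals were among the genes with the strongest loss of response. Nts, which encodes the peptide neurotensin, had 4.50 to 11.8 CPM (median 5.47) in injured cKO and 1.07 to 2.18 (median 1.87) in naive cKO ganglia, against 19.0 to 62.5 (median 34.5) in injured wt and 1.06 to 3.19 (median 2.33) in naive wt ganglia. The naive levels overlapped, all injured wt libraries lay above all injured cKO libraries, and the per-mouse log2 ratio was 1.40 to 2.42 in cKO and 2.86 to 4.90 in wt mice. The difference was -2.27 ± 0.24 (log2, SE, adjusted p = 6.58e-05), on top of a crush effect in cKO mice that itself passed (1.85).

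Gal, the peptide galanin, had a crush effect of 0.25 in cKO mice (adjusted p = 0.691) and rose by 2.98 in wt mice. Its level was 14.1 to 22.5 CPM (median 21.2) in injured cKO and 10.6 to 32.4 (median 15.1) in naive cKO ganglia, against 94.6 to 575 (median 143) in injured wt and 11.2 to 42.7 (median 21.8) in naive wt ganglia. The ratios did not overlap, at -0.54 to 1.00 in cKO and 1.16 to 4.98 in wt mice, and the difference was -2.73 ± 0.45 (adjusted p = 0.00179). Of 17 tested neuropeptide genes, 35.3% were called in either direction, against 7.53% of all genes tested. Called lower were 5, the others of these being Grp, Crh and Adcyap1. Adcyap1, the precursor of PACAP, was the most abundant of them, at 94.1 to 151 CPM in injured cKO and 95.3 to 170 in naive cKO ganglia, against 178 to 369 in injured wt and 96.7 to 166 in naive wt ganglia. The difference was -0.88 ± 0.18 (adjusted p = 0.00752). Grp, gastrin-releasing peptide, had 0.0753 to 0.259 CPM in injured cKO ganglia, against 0.723 to 6.00 in injured wt ganglia. Crh, the corticotropin-releasing hormone, had at most 0.0738 CPM in injured cKO ganglia, against 0.630 to 5.30 in injured wt ganglia. The gene for cholecystokinin, Cck, was called higher in cKO mice (1.32 ± 0.36, adjusted p = 0.0318) at levels under 1.3 CPM, and this call ended without cKO-193, cKO-163, cKO-152, cKO-130 or wt-175.

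Csf1 encodes the macrophage growth factor that injured neurons use to signal to myeloid cells. It had 24.4 to 40.1 CPM (median 30.2) in injured cKO and 17.2 to 31.1 (median 26.8) in naive cKO ganglia, against 73.5 to 316 (median 108) in injured wt and 18.4 to 31.9 (median 26.0) in naive wt ganglia. The ratio spread from -0.18 to 0.51 in cKO mice, on both sides of 0, and from 1.20 to 3.70 in wt mice, without overlap (difference -2.05 ± 0.30, adjusted p = 0.000788). Il34, which encodes the other ligand of the same receptor, differed less (-0.57 ± 0.14, adjusted p = 0.0198). Of 23 tested neuron-to-glia and immune signals 5 were called lower and 0 higher (21.7% called, against 7.53% of all genes tested). The remaining 3 were the chemokine Ccl7 (-1.14 ± 0.23), Fgf3 and the activin antagonist Fst (-1.33 ± 0.39, adjusted p = 0.0466). Fgf3, a fibroblast growth factor, had 0.148 to 0.546 CPM in injured cKO ganglia, against 3.49 to 24.9 CPM in injured wt ganglia, and at most 0.124 CPM in the naive ganglia of either genotype. Its difference was -3.92 ± 1.08 (adjusted p = 0.0329) and the call ended without cKO-194, cKO-193, cKO-163, cKO-156, cKO-152, wt-175, wt-172 or wt-139. That of Fst ended without any of 12 mice (cKO-193, cKO-192, cKO-156, cKO-152, cKO-131, cKO-130, wt-195, wt-176, wt-175, wt-172, wt-150 and wt-139), and the count of 5 fell to 3 without cKO-193, cKO-156, cKO-152, wt-175, wt-172 or wt-139.

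Receptors and a transporter formed a further set. Gpr151, an orphan receptor of injured sensory neurons, had 3.73 to 10.3 CPM (median 5.78) in injured cKO and 0.751 to 1.33 (median 0.942) in naive cKO ganglia, against 26.7 to 116 (median 41.1) in injured wt and 0.558 to 1.31 (median 0.933) in naive wt ganglia. It rose in every mouse of both genotypes, by log2 ratios of 2.00 to 3.42 in cKO and 4.55 to 7.50 in wt mice (difference -3.08 ± 0.37, adjusted p = 0.000147). Acvr1c, the activin receptor ALK7, had 0.169 to 0.541 CPM in injured cKO and 0.170 to 0.410 in naive cKO ganglia, against 1.52 to 12.6 in injured wt and 0.141 to 0.427 in naive wt ganglia. Its injured levels thus overlapped the naive ones in cKO mice and stood apart in wt mice (difference -3.44 ± 0.35, adjusted p = 4.09e-05).

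Slc6a4, the serotonin transporter, had 0.943 to 2.68 CPM in injured cKO and at most 0.304 in naive cKO ganglia, against 7.91 to 50.5 in injured wt and at most 0.209 in naive wt ganglia. The ratios nearly separated: the highest cKO mouse, cKO-163 at 5.37, lay just above the lowest wt mouse at 5.35, and the next cKO mouse was at 3.34 (difference -3.98 ± 0.51, adjusted p = 0.000246). The adhesion receptor Adgrd1 was at 5.64 to 10.46 CPM in injured cKO and 5.21 to 8.96 in naive cKO ganglia, against 23.7 to 87.6 in injured wt and 3.70 to 8.80 in naive wt ganglia. The difference was -2.26 ± 0.25 (adjusted p = 9.34e-05).

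Among structural genes, the growth-associated protein Gap43 had a crush effect of -0.05 in cKO mice (adjusted p = 0.89) and 1.21 in wt mice. Its level was 119 to 168 CPM (median 149) in injured cKO and 127 to 174 (median 150) in naive cKO ganglia, against 194.7 to 715 (median 331) in injured wt and 112 to 203 (median 159) in naive wt ganglia. The ratio was above 0 in 3 of 8 cKO mice and in 9 of 9 wt mice, and the groups did not overlap (-0.34 to 0.20 in cKO, 0.37 to 2.12 in wt; difference -1.26 ± 0.21, adjusted p = 0.00179). Igfn1, which encodes an immunoglobulin and fibronectin domain protein best known from muscle, had 0.0185 to 0.101 CPM in injured cKO and 0.0195 to 0.136 in naive cKO ganglia, against 2.31 to 15.0 in injured wt and 0.0186 to 0.158 in naive wt ganglia. This was the largest difference of all genes named here (-6.06 ± 0.72, adjusted p = 0.000147), with a crush effect of 0.17 in cKO (adjusted p = 0.889) and 6.23 in wt mice.

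Tubb6, a beta-tubulin, kept part of its response, with 9.11 to 29.9 CPM in injured cKO and 4.10 to 7.91 in naive cKO ganglia, against 41.0 to 187 in injured wt and 5.56 to 7.29 in naive wt ganglia. The difference was -1.91 ± 0.25 (adjusted p = 0.000246). Of 21 tubulins and neurofilaments 7 were called lower and 0 higher (33.3% called, against 7.53% of all genes tested), at a median difference of -0.06 over the list. Besides Tubb6 they were Tubb2a (-0.59 ± 0.09), Tubb2b (-0.67 ± 0.13), the filament gene Ina (-0.48 ± 0.11), Tuba1c (-0.62 ± 0.15), Tuba1a (-0.31 ± 0.08) and Tuba1b (-0.17 ± 0.05); tubulin genes are near-copies whose reads can be shared, and the Tuba1b call ended without cKO-163, cKO-156, cKO-152, cKO-131, cKO-130, wt-172 or wt-139. Of 19 growth cone genes 26.3% were called, against 7.53% of all genes tested. Of them 5 were lower and 0 higher: Gap43, the collapsin response gene Crmp1 (-0.55 ± 0.11), the actin bundler Fscn1 (-1.05 ± 0.22), the microtubule regulator Stmn2 (-0.48 ± 0.10) and Dpysl5 (-0.30 ± 0.09). This count was 9 without wt-146, and the Dpysl5 call ended without cKO-194, cKO-193, cKO-192, cKO-163, cKO-152, cKO-131, cKO-130, wt-195, wt-175, wt-172, wt-150 or wt-139. Flrt3, a membrane protein of neurite outgrowth, had 32.1 to 69.6 CPM in injured cKO and 16.5 to 30.6 in naive cKO ganglia, against 68.9 to 347 in injured wt and 15.0 to 26.4 in naive wt ganglia. The difference was -1.56 ± 0.22 (adjusted p = 0.000495).

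Further genes of this set encode proteins that act on lipid, carbon dioxide and matrix. Star, which moves cholesterol into mitochondria, had 0.790 to 1.81 CPM in injured cKO and 0.526 to 0.868 in naive cKO ganglia, against 7.37 to 38.7 in injured wt and 0.618 to 1.39 in naive wt ganglia. The difference was -2.97 ± 0.35 (adjusted p = 0.000147). Car3, a carbonic anhydrase, had 0.640 to 5.89 CPM in injured cKO and 0.412 to 1.08 in naive cKO ganglia, against 17.3 to 66.1 in injured wt and 0.438 to 1.67 in naive wt ganglia. The difference was -2.97 ± 0.43 (adjusted p = 0.000659). Loxl2, a lysyl oxidase that cross-links collagen, had 0.520 to 1.33 CPM in injured cKO and 0.685 to 1.44 in naive cKO ganglia, against 2.70 to 14.6 in injured wt and 0.738 to 1.41 in naive wt ganglia. The difference was -2.96 ± 0.38 (adjusted p = 0.000213). In each of the 3 the per-mouse ratios did not overlap, and Loxl2 rose in 3 of 8 cKO mice against 9 of 9 wt mice. Wfdc3 and Tmem88b, which also reached 5 CPM in the highest group, had differences of -3.11 ± 0.32 and -3.65 ± 0.40.

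**Figure D3:**
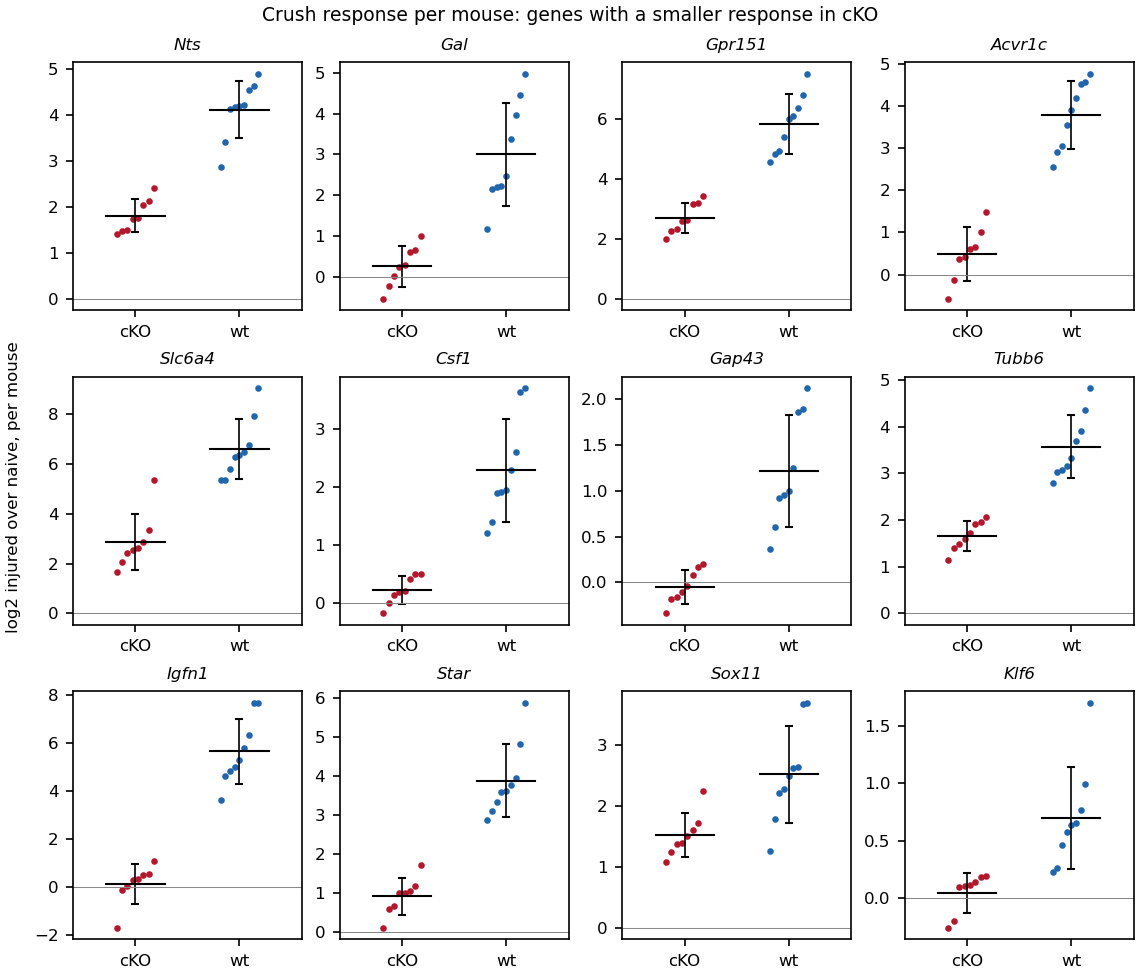
Points are the log2 ratio of injured to naive CPM (prior count of 2) of each mouse for 12 genes called lower, with 8 cKO mice (red) left of 9 wt mice (blue), and black lines give the mean and SD. In Gap43, Csf1, Gal and Klf6 the cKO mice scatter around 0, in Nts, Gpr151, Tubb6 and Sox11 all lie above 0 but lower than most or all wt mice, and in Slc6a4 and Sox11 the groups overlap.

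A few genes were so rare in naive cKO ganglia that the fitted ratio was unreliable: Sprr1a, a cornified envelope protein switched on in injured neurons, with 2 counts over the 8 naive cKO libraries, Lipn, a lipase, with 2, and Npy, the peptide neuropeptide Y, with 4. Their log2 difference was not called (Sprr1a -0.31 ± 1.97, adjusted p = 0.956; Npy -0.62 ± 6.15, adjusted p = 0.973; Lipn -2.64 ± 2.01, adjusted p = 0.495). On the CPM scale Sprr1a gained 0.677 to 8.44 CPM in cKO mice (median 5.17), against 73.0 to 515 CPM in wt mice (median 142). Npy gained 0.0188 to 2.94 CPM in cKO mice, against 21.4 to 137 CPM in wt mice. Lipn gained 0.0753 to 0.781 CPM in cKO mice, against 3.82 to 16.0 CPM in wt mice. No cKO mouse reached the lowest wt mouse in any of the 3. These genes and this scale were chosen after the values were seen, so no test is given.

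Sprr1a and some other genes named here carry the AP-1 letters TGANTCA in their promoter, and the 4 promoters are shown because they hold a match within 250 bases before to 50 bases after the start. Of 29 genes looked up, these being the 28 above and Sprr1a, 18 had a promoter in RefSeq's GRCm38.p6 table. Capitals mark each match, and each sequence runs 5′ to 3′ on the gene's own strand.
Sprr1a (chr3:92485832-92486131, minus strand): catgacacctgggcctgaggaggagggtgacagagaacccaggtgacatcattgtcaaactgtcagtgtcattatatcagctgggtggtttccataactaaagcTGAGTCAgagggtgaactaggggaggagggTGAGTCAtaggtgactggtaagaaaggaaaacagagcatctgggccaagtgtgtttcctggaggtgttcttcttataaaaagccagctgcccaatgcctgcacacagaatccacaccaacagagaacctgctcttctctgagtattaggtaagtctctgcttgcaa
Nts (chr10:102490369-102490668, minus strand): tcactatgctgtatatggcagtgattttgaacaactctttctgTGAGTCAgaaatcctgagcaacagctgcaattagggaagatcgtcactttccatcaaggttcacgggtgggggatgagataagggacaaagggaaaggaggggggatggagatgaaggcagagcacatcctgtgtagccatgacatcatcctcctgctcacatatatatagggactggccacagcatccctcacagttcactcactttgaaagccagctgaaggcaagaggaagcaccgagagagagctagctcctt
Tmem88b (chr4:155785825-155786124, minus strand): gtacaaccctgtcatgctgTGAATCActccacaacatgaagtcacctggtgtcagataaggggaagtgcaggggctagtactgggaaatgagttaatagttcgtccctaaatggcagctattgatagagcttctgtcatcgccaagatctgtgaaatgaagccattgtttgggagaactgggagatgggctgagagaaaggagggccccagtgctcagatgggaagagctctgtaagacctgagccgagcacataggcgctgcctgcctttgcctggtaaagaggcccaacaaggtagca
Brdt (chr5:107330944-107331243, plus strand): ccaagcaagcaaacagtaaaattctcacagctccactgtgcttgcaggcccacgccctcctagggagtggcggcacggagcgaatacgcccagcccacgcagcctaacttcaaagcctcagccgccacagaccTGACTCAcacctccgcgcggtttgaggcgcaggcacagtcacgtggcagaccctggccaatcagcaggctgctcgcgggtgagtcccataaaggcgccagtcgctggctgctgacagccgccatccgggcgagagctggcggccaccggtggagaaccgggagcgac

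In Sprr1a there are 2 matches, the nearer of them 116 bases before the start. In Nts, Tmem88b and Brdt they begin 207, 231 and 117 bases before it. Sprr1a, Nts and Tmem88b had lower gains in cKO mice, while Brdt, a bromodomain gene best known from the testis, was called higher. Over promoters in the table, TGANTCA (its reverse complement is the same pattern, so both strands are covered) occurred in 65 of 719 promoters of genes called lower (9.04%, 95% Wilson interval 7.16 to 11.4%), in 33 of 641 of genes called higher (5.15%, 3.69 to 7.14%) and in 884 of 16048 of all genes tested (5.51%). The full ATF/CREB letters TGACGTCA, which do not overlap the first pattern, were in 2.23% of promoters of genes called lower, 1.40% of those called higher and 2.80% of all. A match describes the letters in this window and is not a measured binding site.

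Transcription factors were counted in 2 lists. Of 21 AP-1 and ATF family genes 3 were called lower and 0 higher (14.3% of the list called, against 7.53% of all genes tested, with a median difference of 0.02): Batf3 (-1.98 ± 0.48, adjusted p = 0.0173, under 2 CPM), the cAMP-responsive modulator Crem (-0.63 ± 0.15, adjusted p = 0.0181) and Atf4. Jun, the usual partner of ATF3, had 363 to 589 CPM in injured cKO and 204 to 421 in naive cKO ganglia, against 333 to 810 in injured wt and 229 to 432 in naive wt ganglia. It rose in both genotypes, by 0.48 in cKO and 0.44 in wt mice, and the difference was 0.05 ± 0.16 (adjusted p = 0.915). Of 15 growth-linked factors 3 (20.0%) were lower, against 4.29% of all genes tested: Klf6, Crem and Sox11. Klf6, a zinc finger factor of axon growth, was at 84.9 to 129 CPM in injured cKO and 93.7 to 119 in naive cKO ganglia, against 114 to 281 in injured wt and 86.1 to 132 in naive wt ganglia (difference -0.65 ± 0.16, adjusted p = 0.0169), and its ratios did not overlap. Sox11, an HMG-box factor of regeneration, rose in every mouse of both genotypes, with ratios of 1.09 to 2.25 in cKO and 1.26 to 3.70 in wt mice (difference -0.99 ± 0.28, adjusted p = 0.0378). The Sox11 call ended without cKO-194, cKO-193, cKO-192, cKO-156, cKO-152, cKO-131, cKO-130, wt-195, wt-176, wt-175, wt-172 or wt-139.

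Many stress genes passed the test for the crush itself, for which 4.77% of all genes tested rose in cKO and 20.8% in wt mice. Of 27 integrated stress response genes, 13 rose in cKO and 19 rose in wt mice, with median crush effects of 0.34 and 0.38, and only Atf4 (-0.36 ± 0.10, adjusted p = 0.0357) and Ddit4, a growth regulator (0.32 ± 0.08, adjusted p = 0.0175), had a called difference (7.41% of the list, against 7.53% of all genes tested). DESeq2 called 4 of these genes higher and 1 lower, against 1025 higher and 1066 lower of all 19565 genes tested. The glutathione-degrading enzyme Chac1, a classic target of ATF4, rose by 1.08 in cKO and 1.23 in wt mice (difference -0.14 ± 0.24, adjusted p = 0.795). The Atf4 call ended without cKO-194, cKO-193, cKO-192, cKO-163, cKO-156, cKO-152, cKO-130, wt-176, wt-172, wt-150 or wt-139; without wt-155 the count of lower genes was 2, and the count of higher genes was 2 without cKO-130, wt-195, wt-150 or wt-139 and 3 without wt-141. Among 20 injury and death genes 4 (20.0%) were called, against 7.53% of all genes tested. The cell cycle inhibitor Cdkn1a (-1.18 ± 0.26, adjusted p = 0.0112), the BH3-only gene Pmaip1 (-1.39 ± 0.29, adjusted p = 0.00739) and Bax (-0.22 ± 0.06, adjusted p = 0.0418) were lower. Bcl2l1, which encodes the survival protein Bcl-xL, was higher (0.17 ± 0.05, adjusted p = 0.0493). Cdkn1a had 45.2 to 75.9 CPM in injured cKO and 23.6 to 40.1 in naive cKO ganglia, against 78.5 to 286 in injured wt and 22.2 to 43.7 in naive wt ganglia. The Bax and Bcl2l1 calls each ended without any of 13 mice (cKO-194, cKO-193, cKO-192, cKO-163, cKO-156, cKO-152, cKO-131, cKO-130, wt-176, wt-172 and wt-139 for both, with wt-150 and wt-195 for Bax and wt-146 and wt-175 for Bcl2l1); the count of higher genes was 2 without wt-155 and 3 without wt-150 or wt-141. DESeq2 called 4 genes of this list higher, and paired limma 0, against 1025 and 501 of all 19565 genes tested.

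Of the 26 lists, cholesterol synthesis had the most members called after the regeneration-associated genes. By share it was first, with 55.6% called, against 54.8% of the regeneration-associated list and 7.53% of all genes tested. Of the 27 cholesterol genes 14 were lower in cKO mice and 1, the sterol sensor Scap, was higher. The median difference was -0.22, and the median crush effects were -0.11 in cKO and 0.15 in wt mice. The members called were spread over the pathway from Hmgcs1 through Mvd and Sqle to Hsd17b7, and the count of 14 stayed within 1.5 times when any 1 mouse was left out. Hsd17b7, which acts late in the pathway, had 44.6 to 81.8 CPM in injured cKO and 41.2 to 55.7 in naive cKO ganglia, against 111 to 323 in injured wt and 40.2 to 67.7 in naive wt ganglia. The difference was -1.36 ± 0.20 (adjusted p = 0.00077).

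Mvd and Sqle, enzymes before and after squalene is made, had differences of -0.56 ± 0.09 and -0.34 ± 0.06 (adjusted p = 0.0013 each) and no overlap of the ratios. Without the mouse as a block the count of lower genes was 6, within Cre-positive mice 4, within females 4, and 0 within males, high-share or low-share mice. The Scap call (0.18 ± 0.05, adjusted p = 0.0397) ended without cKO-194, cKO-192, cKO-163, cKO-156, cKO-131, wt-176, wt-175, wt-172, wt-146 or wt-139. Satellite glia also make cholesterol, and the summed level of 15 satellite glia markers was 1576 to 3193 CPM in injured cKO and 1514 to 2843 in naive cKO ganglia, against 1848 to 3486 in injured wt and 1577 to 2467 in naive wt ganglia. Its part in the result was not tested.

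Genes with a higher crush effect in cKO mice differed by less. Chodl, a C-type lectin membrane protein, had the largest difference among called genes of at least 5 CPM in the highest group without predicted-gene names (1.90 ± 0.38, adjusted p = 0.00574), with 3.69 to 9.77 CPM (median 5.71) in injured cKO and 2.55 to 5.38 (median 2.97) in naive cKO ganglia, against 0.321 to 4.68 (median 1.752) in injured wt and 2.46 to 6.64 (median 3.25) in naive wt ganglia. It was up in 8 of 8 cKO mice and in 1 of 9 wt mice, and the ratios of that wt mouse and the lowest cKO mice overlapped. Kcng4, a modifier subunit of Kv2 potassium channels, had 8.96 to 30.6 CPM (median 25.0) in injured cKO and 6.48 to 13.7 (median 9.58) in naive cKO ganglia, against 6.11 to 8.69 (median 7.76) in injured wt and 5.52 to 18.3 (median 10.0) in naive wt ganglia. The difference was 1.55 ± 0.26 (adjusted p = 0.00202). All injured cKO libraries lay above all injured wt libraries, but the per-mouse ratios of Kcng4 overlapped (-0.01 to 1.88 in cKO, -1.195 to 0.65 in wt mice).

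Some of these genes rose in both genotypes and more so in cKO mice. Pcdh18, a protocadherin, rose by 1.44 in cKO and 0.28 in wt mice (difference 1.16 ± 0.15, adjusted p = 0.000284). Racgap1, a GTPase activator of cytokinesis, rose by 1.56 in cKO and 0.48 in wt mice (1.08 ± 0.19, adjusted p = 0.0022). Wnt16, a secreted Wnt ligand, rose by 1.65 in cKO and 0.72 in wt mice (0.93 ± 0.18, adjusted p = 0.00378). Rspo2, which enhances Wnt signalling, had 77.4 to 138 CPM in injured cKO and 49.1 to 78.4 in naive cKO ganglia, against 56.7 to 75.5 in injured wt and 49.3 to 77.1 in naive wt ganglia. Its difference was small and regular (0.49 ± 0.06, adjusted p = 0.000147), since the ratio was 0.47 to 0.81 in cKO mice and at most 0.40 in wt mice. Hoxb9, a posterior Hox gene (0.93 ± 0.20), and Brdt (0.73 ± 0.09) rose in cKO mice, while their crush effects in wt mice, 0.15 for Hoxb9 and 0.11 for Brdt, did not pass.

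Others had no called effect in cKO mice and fell in wt mice. Inpp5j, an inositol phosphatase, had 45.1 to 70.2 CPM in injured cKO and 42.7 to 64.9 in naive cKO ganglia, against 24.6 to 42.2 in injured wt and 51.2 to 71.7 in naive wt ganglia. The difference was 0.82 ± 0.11 (adjusted p = 0.000323). Nuak1, a kinase related to AMPK, had a crush effect of 0.12 in cKO and -0.35 in wt mice (difference 0.47 ± 0.06, adjusted p = 0.000206). The calcium-sensing receptor Casr had effects of 0.50 in cKO (adjusted p = 0.17) and -0.60 in wt mice (difference 1.10 ± 0.30, adjusted p = 0.0319). Its call ended without cKO-193, cKO-163, cKO-156, cKO-152, cKO-130, wt-176, wt-175 or wt-139.

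**Figure D4:**
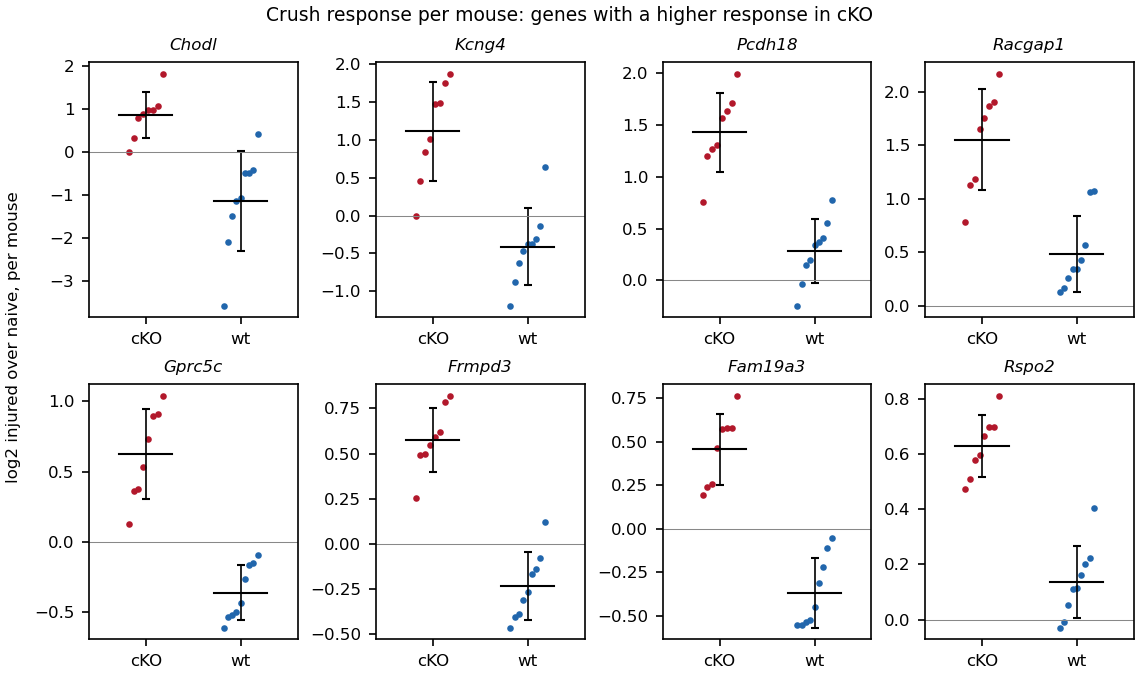
Points are the log2 ratio of injured to naive CPM of each mouse for 8 genes called higher, with 8 cKO mice (red) left of 9 wt mice (blue), and black lines give the mean and SD. In Gprc5c, Frmpd3, Fam19a3 and Rspo2 the groups do not overlap, and in Gprc5c and Fam19a3 every cKO mouse is above 0 and every wt mouse below 0.

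Among genes with a called difference, at least 5 CPM in the highest group and no predicted-gene name, 30 had crush effects of opposite sign that passed in both genotypes. Of these, 23 were up in cKO and down in wt mice, and 7 the reverse. Before the limits on CPM and name, 1474 of 19565 genes tested had a called difference, 635 higher and 839 lower. How many passed in both genotypes with the same sign was not counted, so the split is a description. Frmpd3, a scaffold protein of glutamate receptors, had 42.2 to 60.4 CPM (median 55.4) in injured cKO and 27.5 to 40.3 (median 35.7) in naive cKO ganglia, against 28.0 to 37.8 (median 32.3) in injured wt and 34.6 to 44.0 (median 37.2) in naive wt ganglia. All injured cKO libraries were above all injured wt libraries, and the effects were 0.58 in cKO and -0.24 in wt mice (difference 0.81 ± 0.08, adjusted p = 4.14e-05). Gprc5c, an orphan receptor, had 35.6 to 60.5 CPM (median 55.8) in injured cKO and 28.2 to 41.1 (median 32.9) in naive cKO ganglia, against 20.6 to 32.4 (median 28.7) in injured wt and 28.4 to 42.1 (median 34.6) in naive wt ganglia. The difference was 0.99 ± 0.12 (adjusted p = 0.000147).

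Fam19a3, which encodes a secreted chemokine-like protein of the TAFA family, moved by 0.46 in cKO and -0.37 in wt mice (difference 0.83 ± 0.09, adjusted p = 8.89e-05), rising in 8 of 8 cKO and falling in 9 of 9 wt mice. Prokr1, the prokineticin receptor of nociceptors, moved by 0.24 in cKO and -0.35 in wt mice (difference 0.59 ± 0.09, adjusted p = 0.000627). Mrvi1, a protein of cGMP signalling, moved by 0.58 in cKO and -0.48 in wt mice (difference 1.06 ± 0.16, adjusted p = 0.000639).

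Ion channel and subtype genes mostly had a positive difference, which 9923 of all 19565 genes tested had. Of 30 voltage-gated potassium channel genes 5 fell in cKO mice and 24 in wt mice, with median effects of -0.22 in cKO and -0.46 in wt mice. Among all genes tested 3.62% fell in cKO and 20.1% in wt mice. The difference was positive in 27 of 30 genes. It passed in 4 of them (13.3%), all higher in cKO, against 3.25% of all genes tested, among them Kcng4, the juxtaparanodal channel Kcna2 (0.56 ± 0.15, adjusted p = 0.029) and the beta subunit Kcnab2 (0.22 ± 0.06, adjusted p = 0.0381). Kcna2 had 311 to 496 CPM in injured cKO and 358 to 639 in naive cKO ganglia, against 132 to 375 in injured wt and 474 to 663 in naive wt ganglia, and it was lower on the injured side in every mouse. The Kcna2 call ended without cKO-193, cKO-131, wt-175, wt-172 or wt-139, and without each of these the list had 2 calls. That of Kcnab2 ended without cKO-194, cKO-193, cKO-192, cKO-163, cKO-131, wt-175, wt-172, wt-146 or wt-139. Without the mouse as a block the list had 2 calls. It had 1 within Cre-positive or high-share mice, and 0 within females, males or low-share mice.

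Of 26 sodium and calcium channel genes 15.4% were called, against 7.53% of all genes tested. Higher were 3, the sodium channels Scn1a (0.43 ± 0.10, adjusted p = 0.0145) and Scn8a (0.37 ± 0.10, adjusted p = 0.023) and the calcium channel subunit Cacnb2 (0.46 ± 0.13, adjusted p = 0.0294), and 1 was lower. That one was Cacna2d1, the subunit bound by gabapentin, which had 270 to 520 CPM in injured cKO and 285 to 422 in naive cKO ganglia, against 470 to 1302 in injured wt and 286 to 463 in naive wt ganglia. Its ratios did not overlap (difference -0.82 ± 0.17, adjusted p = 0.00734). The Cacnb2 call ended without cKO-193, cKO-131, cKO-130, wt-175 or wt-139. Without the mouse as a block, or within females, males, high-share or low-share mice, 0 genes of this list were called higher. Within Cre-positive mice, females, males, high-share or low-share mice, 0 were called lower.

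Of 26 mechanoreceptor and proprioceptor genes 7 were called higher (26.9%, against 3.25% of all genes tested) and 0 lower, with a positive difference in 25. The count was 2 by paired limma and 3 without a filter on low counts, and in the potassium channel list it was 2 under both. They were the nuclear receptor Esrrg (0.69 ± 0.15, adjusted p = 0.0107), the scaffold Whrn (0.71 ± 0.16, adjusted p = 0.012), Kcna2, the factors Mafa (0.76 ± 0.22, adjusted p = 0.037) and Etv1 (0.51 ± 0.15, adjusted p = 0.0466), Cntnap2 (0.25 ± 0.07, adjusted p = 0.0486) and the mechanical channel Piezo2 (0.19 ± 0.06, adjusted p = 0.0496). The count was 2 without cKO-193, wt-172 or wt-139, 3 without cKO-163, cKO-131, wt-195, wt-175, wt-155 or wt-150, and 4 without cKO-194, cKO-192 or cKO-152. Without the mouse as a block it was 1. Within females it was 2, within high-share mice 1, and 0 within Cre-positive mice, males or low-share mice. Esrrg and Whrn kept their call without any 1 mouse. The calls of Mafa, Etv1, Cntnap2 and Piezo2 each ended without cKO-193, cKO-163, wt-195, wt-172, wt-155, wt-150 or wt-139. That of Mafa also ended without cKO-194, cKO-192 or cKO-130, that of Piezo2 without cKO-156, cKO-152, cKO-131 or wt-175, and those of Etv1 and Cntnap2 without cKO-194, cKO-192, cKO-152, cKO-131, wt-176 or wt-175, with cKO-130 for Etv1. Of 34 nociceptor genes 2 fell in cKO and 21 in wt mice, and 28 had a positive difference. Among all genes tested 3.62% fell in cKO and 20.1% in wt mice, and 9923 of 19565 had a positive difference. Called in either direction were 2.94% of the list, against 7.53% of all genes tested. By edgeR 0 of them were called higher (4 at an unadjusted p under 0.05, 2 called by DESeq2 and 0 by paired limma) and 1, the growth factor receptor Ret, was called lower (-0.32 ± 0.08, adjusted p = 0.0197). Among all 19565 genes tested, 2058 were higher at an unadjusted p under 0.05 by edgeR, and DESeq2 called 1025 higher and paired limma 501. The Ret call ended without cKO-152, 2 genes were lower without wt-176, and 1 gene was higher without cKO-156 or wt-195. Of 24 pan-neuronal genes 3 (12.5%) were lower, against 4.29% of all genes tested: Gap43, Stmn2 and the endocytic adaptor Snap91 (-0.39 ± 0.10, adjusted p = 0.019).

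The regeneration-associated list had the most calls by number: 17 of 31 tested genes were lower and 0 higher, against 4.29% and 3.25% of all genes tested. Its median crush effect was 0.43 in cKO and 1.21 in wt mice. Of its genes 16 rose in cKO and 28 in wt mice, against 4.77% and 20.8% of all genes tested. This list was drawn up with earlier results of these data known, so it is not independent evidence of its direction. Of 79 ribosomal protein genes 0 rose in cKO and 42 in wt mice, against 4.77% and 20.8% of all genes tested. Their median effects were 0.02 in cKO and 0.17 in wt mice. The difference was negative in 73 of them, against 9642 of all 19565 genes tested. At an unadjusted p under 0.05 by edgeR 28 were lower, against 2294 of all genes tested. After adjustment edgeR called Rpl39 (-0.29 ± 0.07, adjusted p = 0.0229) and Rplp0 (-0.30 ± 0.09, adjusted p = 0.0364) lower, or 2.53% of the list against 4.29% of all genes tested. DESeq2 called 5 lower, against 1066 of all 19565 genes tested. The edgeR count was 0 without cKO-130 or cKO-163, 1 without cKO-193, cKO-156, cKO-152, wt-175, wt-172, wt-150 or wt-139, 4 without wt-155 and 11 without wt-141.

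**Figure D5:**
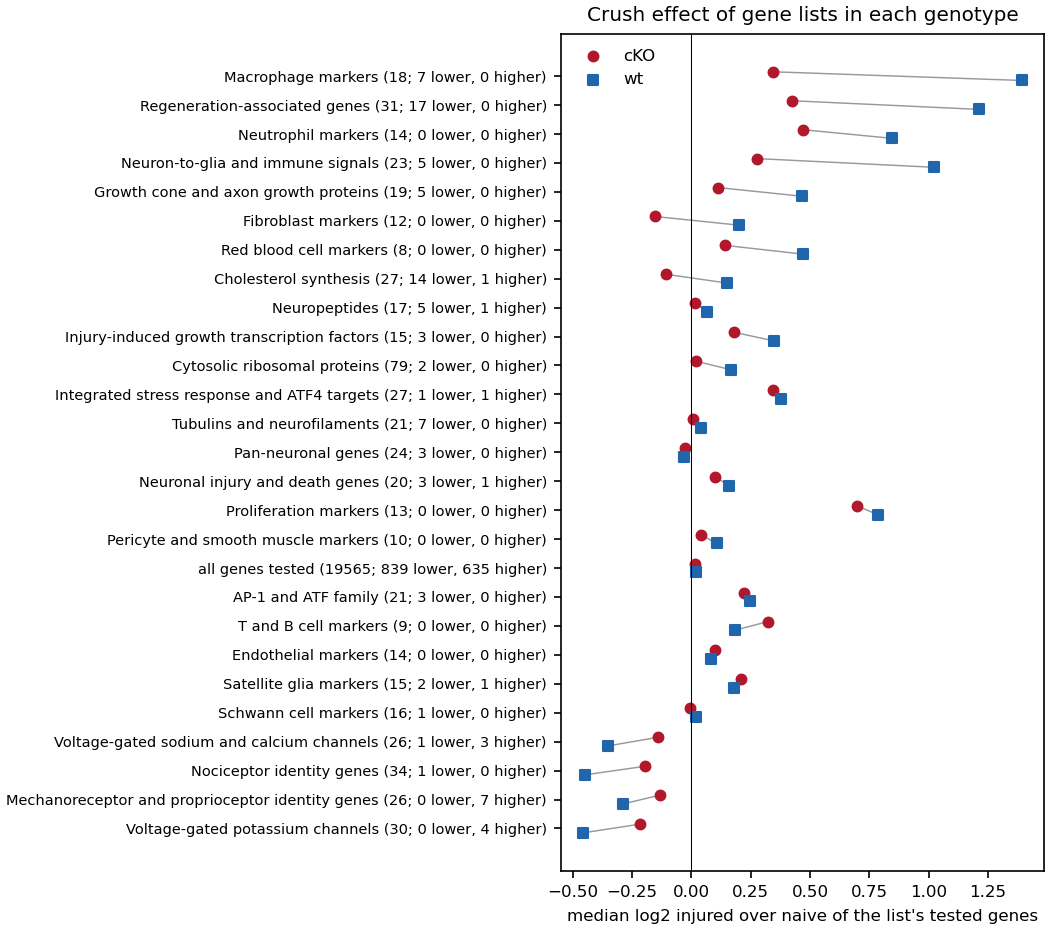
For each gene list the median crush effect of its tested genes (log2 injured over naive) is shown in cKO (red circles) and wt mice (blue squares), with the number of genes tested and called in the label. The regeneration list stands at 0.43 in cKO and 1.21 in wt mice, the macrophage markers at 0.35 and 1.39, and the potassium channel list at -0.22 and -0.46.

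A part of the crush response did not differ detectably between genotypes. At least a 2-fold rise in both genotypes was shared by 5 genes with a 95% interval of the difference within 1.5-fold either way: Tmem173 (the DNA sensor adaptor STING), Pappa (a protease of the insulin-like growth factor system), Spp1 (osteopontin), Fam210b and Ecm1 (a matrix protein). Only genes of at least 5 CPM in the highest group without predicted-gene names were searched. Of all genes tested, 235 (1.2%) rose at least 2-fold in cKO and 730 (3.73%) in wt mice, and those that did so in both were not counted. The interval also widens with the SE, so a gene outside this set is not thereby shown to differ. Pappa had 18.3 to 46.5 CPM in injured cKO and 12.2 to 17.7 in naive cKO ganglia, against 33.5 to 67.1 in injured wt and 11.5 to 22.6 in naive wt ganglia, and its difference was -0.15 ± 0.17 (interval -0.51 to 0.21). Spp1 had 20.0 to 119 CPM in injured cKO and 13.5 to 55.3 in naive cKO ganglia, against 37.3 to 102 in injured wt and 15.3 to 45.4 in naive wt ganglia. The difference was 0.06 ± 0.23 (interval -0.42 to 0.54). Bdnf, the neurotrophin made by injured sensory neurons, had 43.7 to 93.1 CPM in injured cKO and 32.9 to 48.5 in naive cKO ganglia, against 51.3 to 79.8 in injured wt and 33.7 to 47.3 in naive wt ganglia. It rose in all 17 mice, and the difference was 0.18 ± 0.09 (adjusted p = 0.28). The protease inhibitor Timp1 rose by 3.95 in cKO and 3.26 in wt mice (difference 0.69 ± 0.52, adjusted p = 0.484). With this SE the Timp1 effects are not shown to be alike. Its injured cKO libraries were at 5.38 to 8.56 CPM except cKO-131 (2.37), against 1.77 to 4.92 CPM in injured wt libraries. Naive libraries were at 0.186 to 0.892 CPM in cKO and 0.0558 to 0.547 in wt mice.

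Markers of other cells were measured beside these results. All 18 macrophage markers had a negative difference, which 9642 of all 19565 genes tested had. Of the markers 7 were called (38.9%, against 7.53% of all genes tested). The median crush effects of the list were 0.35 in cKO and 1.39 in wt mice. Cx3cr1, the fractalkine receptor, had 0.565 to 1.99 CPM in injured cKO and 0.409 to 1.25 in naive cKO ganglia, against 1.42 to 4.97 in injured wt and 0.0743 to 0.970 in naive wt ganglia. The difference was -1.99 ± 0.39 (adjusted p = 0.00511). C1qb, a complement subunit, had 1.00 to 5.08 CPM in injured cKO and 0.890 to 3.02 in naive cKO ganglia, against 2.55 to 5.59 in injured wt and 0.818 to 2.90 in naive wt ganglia (difference -1.36 ± 0.27, adjusted p = 0.00515). The summed level of the list was 41.7 to 243 CPM (median 71.8) in injured cKO and 30.8 to 123 (median 62.8) in naive cKO ganglia, against 45.2 to 171.8 (median 90.04) in injured wt and 8.53 to 80.4 (median 37.3) in naive wt ganglia. Naive wt ganglia were thus the low group, and injured cKO and injured wt ganglia overlapped. Leaving out cKO-163 gave 3 calls, and there were 4 without a filter on low counts and 4 without cKO-193, cKO-192, cKO-152, wt-175, wt-172 or wt-139, 3 with neither cKO-131 nor wt-150, and 0 within each sex. The part of macrophage RNA in the other results was not tested.

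Of 15 satellite glia markers 20.0% were called, against 7.53% of all genes tested. Of them 2 were lower, Hmgcs1 and the glutamine synthetase Glul (-0.64 ± 0.17, adjusted p = 0.0261), and 1 was higher, the aldolase Aldoc (0.27 ± 0.06, adjusted p = 0.0122). The Glul call ended without cKO-152 or cKO-193, and 2 genes were higher without cKO-193. Of 16 Schwann cell markers 1 was lower (6.25% called, against 7.53% of all genes tested), the myelin protein Pmp22 (-0.28 ± 0.07, adjusted p = 0.0185). The summed level of these markers was 1763 to 2338 CPM in injured cKO and 2074 to 2327 in naive cKO ganglia, against 1832 to 2278 in injured wt and 1966 to 2520 in naive wt ganglia. None of the markers tested of neutrophils (14), T and B cells (9), fibroblasts (12), endothelial cells (14), pericytes (10), red blood cells (8) or proliferation (13) was called in either direction by edgeR. At an unadjusted p under 0.05, 1 neutrophil marker was lower and 1 fibroblast marker higher, against 2294 lower and 2058 higher of all 19565 genes tested. DESeq2 called 1 neutrophil marker lower and paired limma called 0 of these markers. The neutrophil list was the most variable, with sums of 151.5 to 1191 CPM in injured cKO and 71.8 to 549 in naive cKO ganglia, against 44.0 to 746 in injured wt and 16.6 to 257 in naive wt ganglia, and 1 of its genes was called lower without wt-141.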

How the data were processed

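The authors deposited 1 table of unnormalized read counts, with 48795 Ensembl genes as lines and 34 libraries as columns. The libraries were paired-end and stranded, from total RNA, per the labels' protocols. Reads were processed with bcl2fastq 2.20, STAR and HTSeq on GRCm38, per the submitters' processing notes. Which gene annotation and strand setting the counting used, and other versions, are not stated in what was used here. Counts of overlapping genes on opposite strands and of near-copies are therefore uncertain. Symbols and coordinates are from GENCODE for GRCm38; 446 IDs without a symbol held 0.0428% of counts.

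Counts were fitted with edgeR 4.0.16 in R 4.3.3 (TMM, filterByExpr by group, robust quasi-likelihood F-test), with 1 term per mouse and 1 crush term per genotype. The difference is the cKO minus the wt term, its SE was taken as the absolute estimate divided by the root of F, and p was adjusted by Benjamini-Hochberg over 19565 genes. CPM values use TMM library sizes, and per-mouse ratios add a prior count of 2. Both sides of a mouse are paired by the animal. Deviations of the 2 libraries from their group means correlated at 0.106 to 0.84 (median 0.615) over 17 pairs, all over 0.1. By these correlations 10 of the 17 injured libraries were closest to their own partner among the naive libraries of their genotype. No 2 libraries of a group agreed within sampling noise (lowest chi-square per degree of freedom 9.3).

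Slopes were through the origin, over genes that passed limma 3.58.1 on paired wt ratios and averaged at least 2-fold. The fit was tested on simulated data with known differences. Alternatives are given in the closing section, of which 2 were added after seeing the data: leaving out cKO-131 with wt-150, and the CPM scale for genes near 0 counts. Intervals on promoter shares cover counting error only.

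Named genes are the 10 largest differences and 8 smallest p of each sign among called genes of at least 5 CPM in the highest group without predicted-gene names, up to 4 members of each of 26 lists by p, the 5 clearest opposite-sign genes, Atf3 and Avil, the genes alike in both genotypes, members of counts of 5 or fewer, and a few genes added by name after their values were seen (Jun, Bdnf, Timp1, Chac1, Npy and those in the last section). Members, rules and lists were chosen with earlier results of these data known. A few genes that these rules name are not reported here.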

Additional observations from a re-analysis of the deposited data

Results flagged for a closer look

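Of 238 groups of mice checked, 14 had 1 mouse far from the others, by limits set to flag about 1 in 20 by chance alone. That rate is nominal and was not measured here. Among cKO mice, cKO-131 had the lowest ratios for Sprr1a (4.39, the others 6.42 to 7.97), Timp1 (1.38, the others 3.48 to 5.04) and Wnt16 (0.73, the others 1.53 to 1.95) and the highest for Tubb2a (0.0892, the others -0.05 to 0.01). It is also the cKO mouse with low Avil. The mouse cKO-163 stood above the other cKO mice for Slc6a4 (5.37, the others up to 3.34), Flrt3 (1.63, the others up to 1.20) and Atf3 (2.13, the others up to 1.26). For Igfn1 cKO-192 was low (-1.70, the others -0.13 or more), at a level near 0 counts, and for Loxl2 cKO-152 was high (0.81, the others up to 0.14).

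Among wt mice, wt-176 was far from the rest for Kcna2 (-1.88, the others -1.15 to -0.42) and Snap91 (0.92, the others 0.08 to 0.50), wt-172 for Adcyap1 (1.93, the others up to 1.20), and wt-141 for Wfdc3 (2.63, the others 4.03 to 5.38) and Prokr1 (0.10, the others up to -0.25). By slope wt-141 was the wt mouse with the smallest response, and wt-172 and wt-176 those with the largest. The difference of crush effects itself, which compares the genotypes' effects under 1 contrast, passed its test for 839 genes lower and 635 higher in cKO mice.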

How the results depend on the processing

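The counts of genes called with a lower and a higher crush effect in cKO mice moved with the samples used. Without the replicate block (the mouse as a pair) they were 420 lower and 136 higher, in females 112 and 44, in males 0 and 0, in the high spacer share 55 and 18, in the low share 2 and 1, and in Cre-positive mice 251 and 137; DESeq2 called 1025 higher. At least 2-fold differences, lower and higher, numbered 113 and 17 in Cre-positive mice, 81 and 6 in females, 47 and 1 in the high share, 2 and 1 in the low share, 0 and 0 in males, and 144 and 16 with the stricter filter (1 CPM in 8 libraries). Genes that rose after crush in cKO mice numbered 174 in females, 130 in males, 162 and 325 in the high and low share, and 510 without the block. Those that fell there numbered 1485 in Cre-positive mice, 18 in females, 12 in males, 17 and 62 in the high and low share, 114 without the block, 365 without a filter, 403 by paired limma and 1132 by DESeq2. In wt mice 1959 rose and 1985 fell in Cre-positive mice, 1110 and 832 in males, 2143 and 2144 in the high share and 2346 and 2181 in the low share, 2559 rose in females and 2494 fell without the block. Leaving out 1 mouse gave 571 to 1099 lower, 407 to 858 higher, 164 to 275 and 26 to 44 at least 2-fold lower and higher, 560 to 1311 up and 280 to 1363 down after crush in cKO, and 3375 to 4262 up and 3431 to 4361 down in wt mice. Fewer mice were fitted in the subsets. With the window set to the last 100 bases before the start, TGANTCA was in 3.34% of promoters of genes called lower, 2.03% called higher and 1.95% of all, and TGACGTCA in 1.25% called lower and 1.80% of all.

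Over all genes tested, the counts of the difference stayed within 1.5 times under median-ratio size factors, no filter on low counts, paired limma, a non-robust fit, a sex by injury term and a spacer share by injury term. Counts in the gene lists moved more: by DESeq2, 4 stress response, 4 injury and death and 2 nociceptor genes were higher, and without a filter 3 neuron-to-glia signals and 4 macrophage markers were lower. Of the named genes with a called difference, 0 changed direction under any alternative run. Paired limma called Sprr1a, Npy and Lipn lower. Depth limits genes under about 0.1 CPM in naive ganglia, where the fold depends on the prior count.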

Other observations

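A further 4 genes called lower were picked here after their values were seen, and stand for no tested gene group. Inhbb, which encodes the activin B subunit, had 3.41 to 7.40 CPM (median 6.14) in injured cKO and 1.37 to 8.49 (median 4.07) in naive cKO ganglia, against 12.7 to 99.5 (median 25.8) in injured wt and 3.48 to 6.04 (median 4.60) in naive wt ganglia. The injured wt libraries lay above all others (difference -2.22 ± 0.43, adjusted p = 0.00511). The activin and BMP receptor gene Acvr1 had 19.2 to 25.3 CPM in injured cKO and 18.4 to 20.1 in naive cKO ganglia, against 32.6 to 67.6 in injured wt and 17.9 to 20.8 in naive wt ganglia (difference -0.84 ± 0.15, adjusted p = 0.0022).

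Flnc, the actin cross-linker filamin C, differed by -2.89 ± 0.43 (adjusted p = 0.000878) and Egfr, the epidermal growth factor receptor, by -2.59 ± 0.59 (adjusted p = 0.0132). The per-mouse ratios of Flnc did not overlap between genotypes, while those of Egfr did.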
